A study of Mus musculus with 44 samples.

Results

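The 9 genes described here belong to the unfolded protein response, the programme by which a cell adjusts to misfolded protein in the endoplasmic reticulum (ER). They were taken by symbol from the annotation of the array: Hspa5, Hsp90b1, Edem1, Sel1l and Herpud1 form a chaperone and degradation arm, and Atf4, Ddit3, Trib3 and Asns form an arm named after the transcription factor Atf4. They are 9 of 12393 genes, measured by 20 of 22626 probe sets, and all 9 passed the filter on low values. The series holds 44 Affymetrix mouse arrays of total RNA from mice of genotype Eµ-myc, which carry a Myc transgene under the Eµ enhancer of the antibody heavy chain gene, active in B lineage cells, and develop B cell lymphomas. Of these, 43 were labelled lymphoma tumor and 1 spleen, and the mice had been killed when lymphoma was evident or they looked ill. The labels give no treatment, age or sex, do not state that the lymphomas came from separate animals or that the spleen was free of lymphoma, and do not tell tissue from frozen cell pellets for any array. The p-values therefore measure the spread between these samples, which may in part be technical.

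The unfolded protein response is set off by 3 sensors in the ER membrane. Ire1 splices the mRNA of the transcription factor Xbp1, and Atf6 is cut to release a factor of its own. Both raise ER chaperones and the machinery that sends misfolded proteins to the proteasome. The third sensor, Perk, phosphorylates eIF2α, which slows translation in general but lets Atf4 be translated. Atf4 is therefore set largely through its translation, and an array reads its mRNA and not its protein. Atf4 also responds to amino acid shortage through another kinase, Gcn2, and it acts on genes of amino acid supply. B cells that become plasma cells enlarge the ER for antibody secretion and depend on Xbp1 for it.

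The medians of the deposited log2 columns fell into a lower set (6.22 to 6.46), the 36 lymphomas with the lower numbers in their titles, and a higher set (6.86 to 7.02), the spleen and the 7 lymphomas with the higher title numbers. These are called the set of 36 and the set of 7. Levels are given for each set, and every comparison carries the set as a covariate or uses levels centred on the mean of the set's lymphomas. Lymphomas are numbered 1 to 43 in the order of deposit. All 7 B cell markers measured were above the array median on at least 1 array, and their mean centred level, the B cell score, was lowest in lymphoma 32 (-2.68). Lymphoma 13 had the highest stroma score (4.76) and the highest macrophage score (3.65). Lymphomas 30 and 39 had the highest plasma cell score of their sets (3.26 and 1.54). The RNA quality measure, the 3′ minus 5′ difference of control probe sets, ran from 0.10 to 1.18 in the lymphomas and was 0.40 in the spleen.

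Promoter letters that the response is known to use were found in 5 of the 9 genes, in windows of 300 bases, from 250 before the transcription start to 50 after it, from RefSeq (GRCm38.p6). They are shown because elements of the Atf6 and Xbp1 branches and the element of Atf4 are the textbook marks of the 2 arms. The motifs were searched on both strands. The ER stress element (ERSE) is CCAAT, 9 bases of any kind and CCACG, and was in 0.119% of 32851 promoters. ERSE-II is ATTGG, 1 base and CCACG, and was in 0.0365%. The C/EBP-ATF composite site, which Atf4 can bind with a C/EBP partner, is TGATGNAA and was in 3.97%. The Xbp1 element UPRE, TGACGTGG, was in 0.676% of promoters and in no member. The sequences run 5′ to 3′ along the gene, with the letters of the match in capitals. A match on the opposite strand appears as its reverse complement.
Hspa5, ERSE, chr2:34772005-34772063, plus strand: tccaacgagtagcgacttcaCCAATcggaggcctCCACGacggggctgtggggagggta
Hsp90b1, distal ERSE, chr10:86705618-86705676, minus strand: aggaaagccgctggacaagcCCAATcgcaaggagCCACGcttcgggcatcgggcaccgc
Hsp90b1, proximal ERSE on the opposite strand, chr10:86705513-86705571, minus strand: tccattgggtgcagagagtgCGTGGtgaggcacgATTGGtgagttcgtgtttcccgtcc
Herpud1, composite site on the opposite strand and ERSE-II, chr8:94386297-94386407, plus strand: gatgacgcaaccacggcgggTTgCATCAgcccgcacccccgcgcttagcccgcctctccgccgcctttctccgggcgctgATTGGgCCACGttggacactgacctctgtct
Trib3, composite site on the opposite strand, chr2:152344029-152344056, minus strand: tagctcaggtTTaCATCAgccgggcggg
Asns, composite site, chr6:7693205-7693252, minus strand: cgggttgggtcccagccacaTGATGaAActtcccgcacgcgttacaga

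At its nearest base the ERSE of Hspa5 lay 47 bases before the start, and those of Hsp90b1 lay 194 and 89 bases before it. The composite site of Asns lay 16 bases before the start and that of Trib3 lay 15 bases into the transcript. Herpud1 held letters of both kinds, ERSE-II 42 and the composite site 105 bases before the start. The windows of Edem1, Sel1l, Atf4 and Ddit3 held none of the 4 motifs, which says only that these letters were not in that window. Among other genes of ER folding and degradation, 8 of 33 with a promoter in the table held an ERSE, Calr, Canx, Pdia6, Dnajc3 and Creld2 among them. Among other genes of the Atf4 and amino acid response, 0 of 37 held an ERSE and 13 of 37 the composite site. A match is a description of letters, and no binding was measured.

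The 2 chaperones are described first. Hspa5 encodes BiP, the chaperone of the ER lumen that also holds the stress sensors inactive. Its level in the 36 lymphomas ran from 10.91 through a median of 11.64 to 12.93 (mean 11.75 ± 0.46, SD), and in the 7 lymphomas from 11.90 through 12.13 to 13.64 (12.36 ± 0.62), with 13.43 in the spleen. Only lymphoma 39 lay above the spleen in its set. Hsp90b1, the ER form of the Hsp90 chaperone, ran from 10.46 through 11.10 to 12.61 in the 36 (11.20 ± 0.46) and from 11.47 through 11.75 to 12.76 in the 7 (11.88 ± 0.45), with 12.89 in the spleen, above all 7. Within each gene the second probe set followed the first over the lymphomas, with r of 0.980 for Hspa5 and 0.949 for Hsp90b1.

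The degradation genes differed more in how they spread. Edem1, a lectin that passes misfolded glycoproteins on for disposal, ran from 8.19 through 8.75 to 12.23 in the 36 (9.11 ± 0.86) and from 9.36 through 9.53 to 12.65 in the 7 (10.01 ± 1.18), with 12.50 in the spleen. The highest lymphoma of each set stood far above the median: lymphoma 30 was 3.12 and lymphoma 39 was 2.64 above its set mean. Sel1l, the adaptor of the ubiquitin ligase that extracts misfolded proteins from the ER, ran from 6.87 through 7.53 to 9.21 in the 36 (7.58 ± 0.47) and from 7.72 through 8.09 to 9.55 in the 7 (8.25 ± 0.61), and the spleen at 11.86 was above all of them. Herpud1, an ER membrane protein of the same disposal route, ran from 9.43 through 10.54 to 11.62 in the 36 (10.48 ± 0.54) and from 10.41 through 10.81 to 12.35 in the 7 (10.96 ± 0.65). The spleen, at 11.45, lay below lymphoma 39 and above the other 6 lymphomas of its set.

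In the Atf4 arm the factor itself had a narrow range. Atf4 ran from 10.06 through 10.66 to 11.07 in the 36 lymphomas (10.63 ± 0.22) and from 11.33 through 11.58 to 12.18 in the 7 (11.67 ± 0.32), with 12.54 in the spleen. Ddit3, which encodes the stress factor CHOP, ran from 6.0 through 6.31 to 7.40 (6.36 ± 0.31) and from 6.69 through 7.06 to 8.21 (7.34 ± 0.61), with 9.59 in the spleen. Trib3, a pseudokinase induced by Atf4 and CHOP, ran from 5.70 through 6.04 to 6.62 (6.05 ± 0.18) and from 6.63 through 6.73 to 7.89 (6.95 ± 0.44), with 9.08 in the spleen. The spleen lay above all 7 lymphomas of its set for these 3 genes. The low levels limit what can be read of 2 of them: Ddit3 was above the median of its set in 24 of 43 lymphomas and Trib3 in 6 of 43, whereas Asns was in 38 and the other 6 members in all 43.

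Asns, which makes asparagine from aspartate, had the widest range of the 9. It ran from 3.93 through 8.69 to 10.12 in the 36 lymphomas (8.32 ± 1.51) and from 5.73 through 9.80 to 10.96 in the 7 (9.35 ± 1.86), with 11.91 in the spleen. Its highest and lowest centred levels were 72.9-fold apart, and its SD of 1.55 was at the percentile 98.7 of all genes kept. A mixture of 2 normal components separated 6 lymphomas, numbered 5, 16, 18, 25, 33 and 42, from the other 37, with component means of -3.44 and 0.54 around the set mean. Lymphoma 25 was nearest the boundary on the low side, at -1.84, and lymphoma 43 on the other side at -1.11. No other member split in this way. The second Asns probe set had an r of 0.993 with the one used. Over the same lymphomas Atf4 mRNA had an SD of 0.23 and its highest and lowest levels were 2.12-fold apart. Centred Atf4 ran from -0.34 through a median of -0.10 to 0.12 in the 6 lymphomas and from -0.57 through 0.03 to 0.51 in the 37, so the ranges overlapped.

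**Figure D1:**
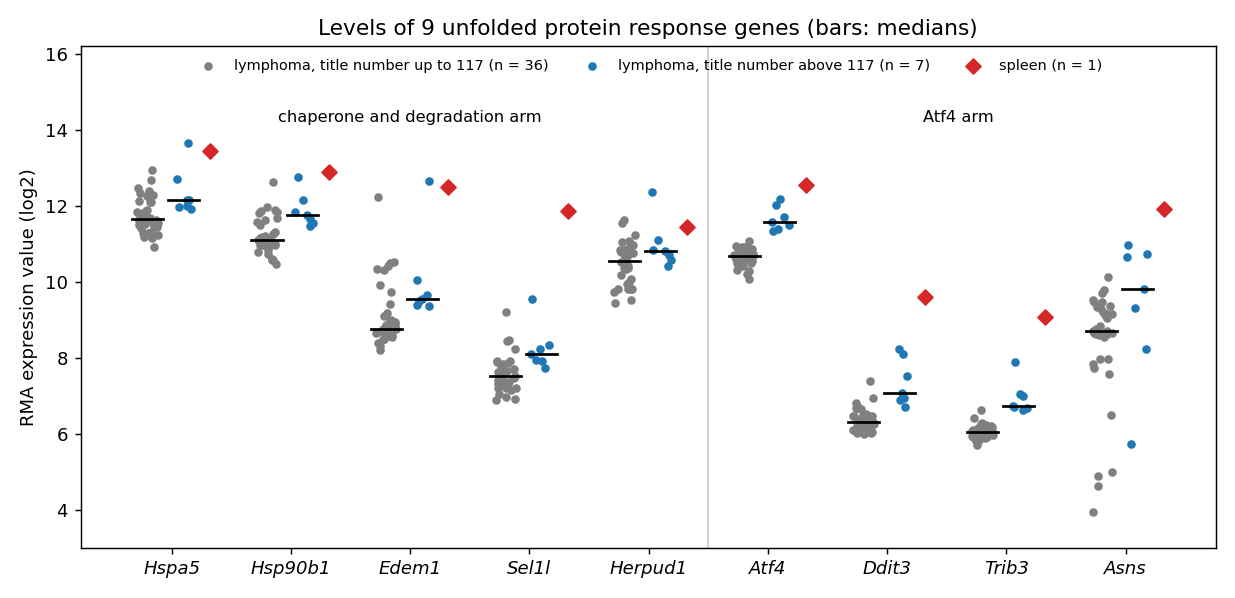
RMA expression values (log2, vertical axis) of the 9 genes (horizontal axis) on each array, with grey points for the set of 36 lymphomas, blue points for the set of 7, red diamonds for the spleen and bars for medians. Asns runs from 3.93 to 10.96 in lymphomas, and the spleen is above all 7 lymphomas of its set for Hsp90b1, Sel1l, Atf4, Ddit3, Trib3 and Asns.

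**Figure D2:**
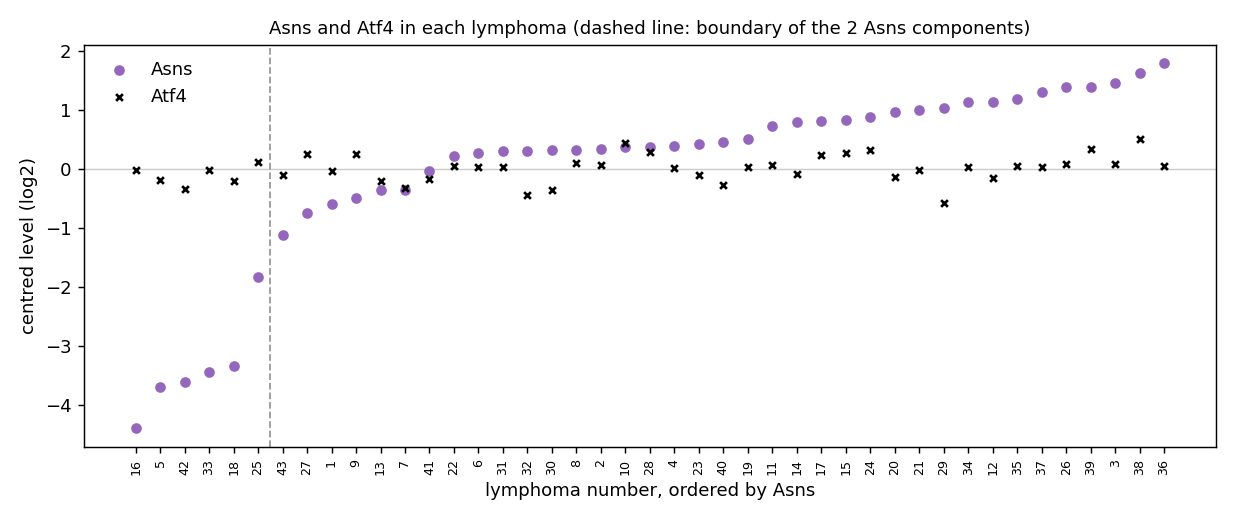
Centred levels (log2, vertical axis) of Asns (purple points) and Atf4 (crosses) in each of the 43 lymphomas, ordered by Asns (horizontal axis), with a dashed line between the 6 lymphomas of the lower Asns component and the other 37. Atf4 runs from -0.34 to 0.12 in the 6 and from -0.57 to 0.51 in the 37.

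Among the other members, the SD of centred levels was 0.90 for Edem1 (percentile 91.1), 0.55 for Herpud1 (78.3), 0.49 for Sel1l (73.4), 0.48 for Hspa5 (72.7) and 0.46 for Hsp90b1 (70). It was 0.36 for Ddit3 (56.2), 0.23 for Trib3 (19.8) and 0.23 for Atf4 (19.4). The chaperone and degradation genes therefore varied more than most genes, and Atf4 and Trib3 less. Lymphomas 30 and 39 held the 2 highest centred levels of all 5 chaperone and degradation genes. They also had the 2 highest levels of Xbp1 (12.87 and 12.97) and of Jchain (13.53 and 13.71), the chain that joins secreted IgA and IgM, and the 2 lowest centred levels of Myc (-1.31 and -1.25). Lymphomas 30 and 39 also had T cell scores of 1.72 and 1.75, against a median of -0.17 over the lymphomas. Their macrophage scores were 0.83 and 2.55, against a median of -0.27. In the Atf4 arm the 2 lymphomas parted. Counted from the highest, Atf4 was 41st of 43 in lymphoma 30 and 3rd in lymphoma 39, and Asns was 26th and 4th.

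Most pairs of the chaperone and degradation genes were correlated over the lymphomas, and no pair within the Atf4 arm passed the threshold. The narrow range of Atf4 and the low levels of Trib3, above its set's median in 6 of 43 lymphomas, limit the latter result. Of 36 pairs, 8 passed a two-sided permutation test adjusted over the 36, and all 8 were among the 10 pairs of the chaperone and degradation arm. That arm's mean Pearson r was 0.616 (0.198 to 0.876). The 6 pairs of the Atf4 arm had a mean r of 0.127 (-0.0207 to 0.227), and the 20 pairs between the arms 0.106 (-0.205 to 0.326). By Spearman's rho 6 pairs passed, all of them in the chaperone and degradation arm. Pairs with Asns were computed over the 37 lymphomas of its upper component, which leaves out the 6 with the lowest Asns.

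The closest pair was Hspa5 and Hsp90b1, with r = 0.876 (adjusted permutation p = 9e-05, from the smallest p that the permutations can give, 1e-05) and rho = 0.752 (adjusted permutation p = 0.00036). Edem1 and Sel1l had r = 0.805 (adjusted permutation p = 9e-05) and rho = 0.464 (adjusted permutation p = 0.0138), and Hspa5 and Edem1 had r = 0.783 (adjusted permutation p = 9e-05) and rho = 0.580 (adjusted permutation p = 0.00198). Herpud1 was correlated with the other degradation genes and not, past the threshold, with the chaperones. Its r was 0.607 with Sel1l (adjusted permutation p = 0.000309, rho = 0.510, adjusted permutation p = 0.00816) and 0.538 with Edem1 (adjusted permutation p = 0.00288), though rho with Edem1 was 0.227 (adjusted permutation p = 0.362). With Hspa5 it was 0.361 (adjusted permutation p = 0.0894) and with Hsp90b1 0.198 (adjusted permutation p = 0.512).

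Lymphomas 30 and 39 carried part of this. They were also the 2 lymphomas farthest from the median of each of the 5 genes. Without them, with levels centred again, the arm's mean r was 0.407 and 4 pairs passed. The r of single pairs without them are given with the first centring, so they are not the exact values tested. The 4 pairs were Hspa5 with Hsp90b1 (r = 0.832) and with Edem1 (0.658), Hsp90b1 with Edem1 (0.562) and Edem1 with Sel1l (0.624). The r of Herpud1 fell to 0.425 with Sel1l and to 0.296 with Edem1, neither past the threshold. Within the set of 36 the same 8 pairs passed, with r of 0.866 for Hspa5 and Hsp90b1. Within the set of 7 none passed, and r for that pair was 0.965 (exact permutation p = 0.00615, adjusted over 28 pairs 0.0861).

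**Figure D3:**
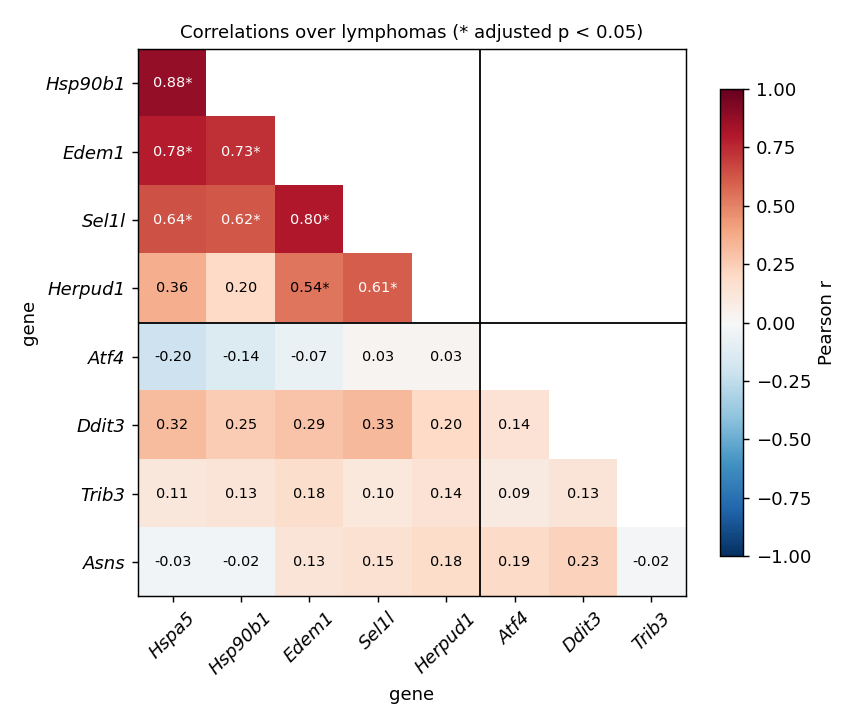
Pearson r between the 9 genes (both axes) over the lymphomas, coloured from -1 (blue) to 1 (red), over 43 lymphomas or, for Asns, the 37 of its upper component. Stars mark an adjusted permutation p under 0.05, and all 8 lie above the black line that closes the chaperone and degradation arm.

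Atf4 and Ddit3 gave different values in the 2 sets. Their r was -0.267 over the 36 lymphomas and 0.960 over the 7 (exact permutation p = 0.00238, 0.0666 after adjustment over 28 pairs), where lymphomas 38, 39 and 37 were the 3 highest for both genes. Over all 43 the r was 0.143 (adjusted permutation p = 0.617) and rho 0.145 (adjusted permutation p = 0.535). The difference between the sets was not tested. Without lymphomas 9, 13, 32 and 40, whose B cell scores were -0.59, -1.36, -2.68 and -0.63, 3 further pairs passed, those of Ddit3 with Hspa5, Hsp90b1 and Sel1l, and the count was 11.

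The chaperone and degradation genes were higher in lymphomas with more Xbp1 mRNA. All 5 had a positive slope past the threshold of 0.05 (limma, Benjamini-Hochberg over 8720 genes), where 18% of all genes did and 47.6% passed in either direction, and 0 of the 4 genes of the Atf4 arm passed in either direction. Xbp1 itself ran from 8.88 through 10.07 to 12.87 in the 36 lymphomas and from 10.27 through 10.57 to 12.97 in the 7. This is an mRNA level, and the splicing of Xbp1 was not measured. Per log2 unit of Xbp1, Hspa5 was higher by 0.49 ± 0.04 (SE, adjusted p = 7.88e-11) and Edem1 by 0.85 ± 0.10 (1.27e-08). Hsp90b1 was higher by 0.38 ± 0.06 (1.80e-06), Sel1l by 0.39 ± 0.07 (8.13e-06) and Herpud1 by 0.33 ± 0.09 (0.00162). Edem1 thus had the steepest slope of the arm and Hspa5 the one best set off from its error.

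In the Atf4 arm the slopes on Xbp1 were -0.08 ± 0.04 for Atf4 (adjusted p = 0.0892), 0.13 ± 0.06 for Ddit3 (0.0996), 0.01 ± 0.04 for Trib3 (0.807) and 0.07 ± 0.28 for Asns (0.855), the last over both of its components. The negative slope of Atf4 passed under other choices, at -0.11 with equal column medians (adjusted p = 0.0242), -0.13 without lymphomas 30 and 39 (0.0378) and -0.12 within the set of 36 (0.0129). Ddit3 passed without lymphomas 9, 13, 32 and 40 (0.14, adjusted p = 0.0431).

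The slopes of the chaperone and degradation genes held their sign in both sets. Within the set of 36 Hspa5 had 0.46 and Edem1 0.77, and within the set of 7 they had 0.64 and 1.23. All 5 genes passed in the first and 4 in the second, where Herpud1 had 0.55 (limma adjusted p = 0.0763). In the set of 7, lymphoma 39 stood apart, with Xbp1 at 12.97 against 11.29 in lymphoma 40, the next highest. Lymphoma 40 had the lowest Herpud1 of that set (10.41). The slopes within that set without lymphoma 39 were not tested. Without lymphomas 30 and 39 Hspa5 had 0.47, Edem1 0.61, Hsp90b1 0.31 and Sel1l 0.24, all past the threshold, and Herpud1 0.20 (adjusted p = 0.134).

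**Figure D4:**
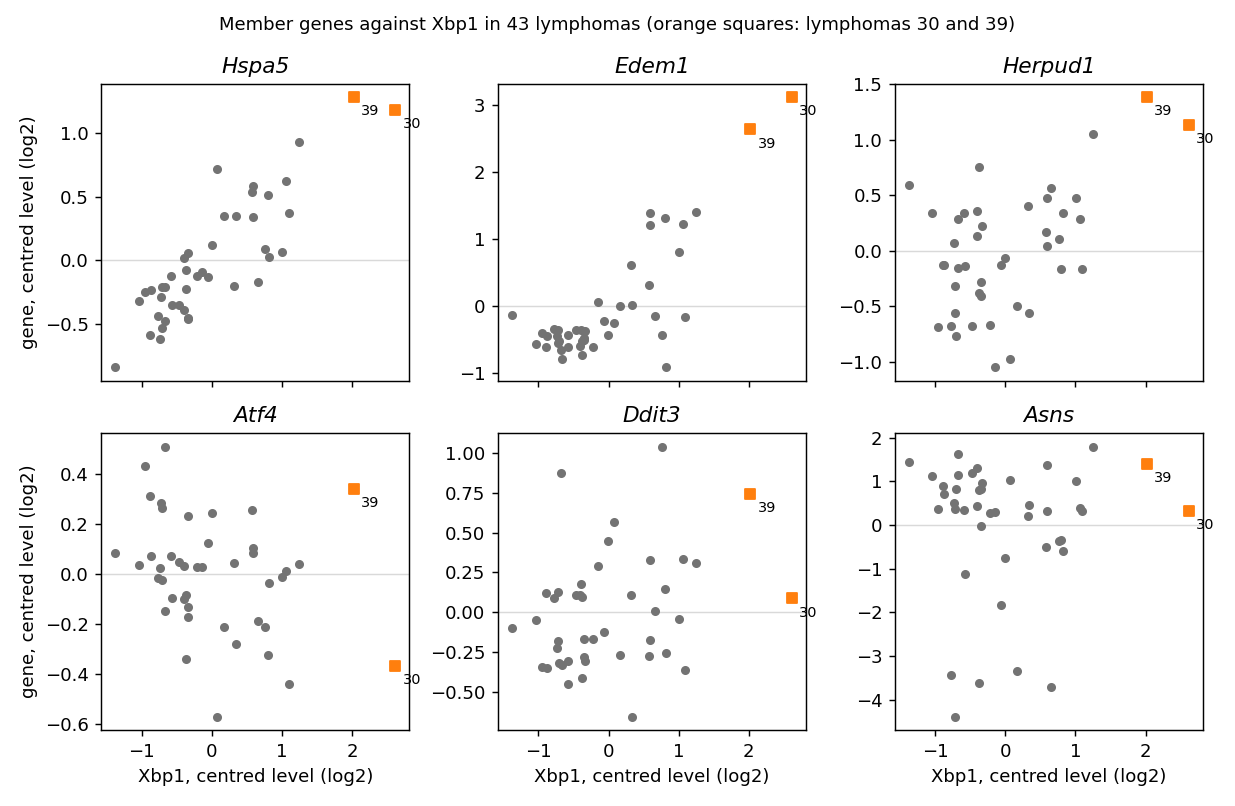
Centred level (log2) of 6 of the genes (vertical axes) against that of Xbp1 (horizontal axis) in 43 lymphomas, with lymphomas 30 and 39 as orange squares. Hspa5, Edem1 and Herpud1 are higher at high Xbp1, with slopes of 0.49, 0.85 and 0.33, whereas Atf4, Ddit3 and Asns show no slope past the threshold.

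Marker scores of some other cell types were correlated with these genes, and which cells the RNA came from was not measured. In bulk RNA, fewer cells of a type and less RNA per cell cannot be told apart. The T cell score, from 8 markers measured, had an r of 0.731 with Hspa5, 0.711 with Hsp90b1, 0.656 with Edem1, 0.478 with Sel1l and 0.133 with Herpud1 over the 43 lymphomas, and 0.647 with Xbp1. All 8 T cell markers had a positive r with Hspa5 (0.550 to 0.733), as did all 10 macrophage markers (0.165 to 0.675). The r of Hspa5 was 0.187 with the neutrophil, 0.209 with the erythroid and -0.012 with the stroma score. The plasma cell score, which includes Xbp1 and Jchain, had an r of 0.718 with Hspa5 and 0.775 with Edem1. Of its 9 markers measured, 8 had a positive r with Hspa5 (-0.248 to 0.865 over the 9). These r are descriptions, given with no test. In the Atf4 arm the r with the T cell score lay between -0.151 and 0.141, and Ddit3 had 0.513 with the macrophage score.

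With the T cell, macrophage, neutrophil, erythroid and stroma scores held as covariates, 1 member passed in the Xbp1 fit, Hspa5, whose slope was 0.34 (limma adjusted p = 0.0398). Edem1 had 0.58 (adjusted p = 0.0603), Herpud1 0.29 (0.486), Hsp90b1 0.19 (0.445) and Sel1l 0.13 (0.682), all still positive. In the Atf4 arm the value that moved most was that of Asns, to -1.03 (0.34). Of all genes, 47 passed in that fit against 4149 without the scores. The correlations also lessened, to a mean r of 0.274 in the chaperone and degradation arm, and 4 pairs passed: Hspa5 with Hsp90b1 (r = 0.679) and the 3 pairs of the degradation genes Edem1, Sel1l and Herpud1 (0.459 to 0.483).

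The same 5 genes were lower in lymphomas with more Myc mRNA. All 5 had a negative slope past the threshold, against 16.9% of all genes. Of the Atf4 arm 0 of 4 passed in either direction, where 43.3% of all genes did. With 4 genes, such a count does not by itself set the arm apart. Myc, which the array does not split into transgene and endogenous RNA, ran from 9.15 through 10.54 to 11.44 in the 36 lymphomas and from 9.90 through 11.22 to 11.78 in the 7. Per log2 unit of Myc, Edem1 fell by 1.18 ± 0.16 (limma adjusted p = 4.87e-07) and Hspa5 fell by 0.56 ± 0.10 (1.82e-05). Hsp90b1 fell by 0.42 ± 0.10 (0.00108), Sel1l fell by 0.41 ± 0.12 (0.0044) and Herpud1 fell by 0.36 ± 0.14 (0.0343). Ddit3 had -0.20 ± 0.09 (0.0822), Trib3 -0.13 ± 0.06 (0.0873), Asns -0.13 ± 0.41 (0.820) and Atf4 0.02 ± 0.06 (0.866). Without the set in the fit, Atf4 had a positive slope past the threshold (0.27, 0.0253), and Hspa5 and Edem1 alone kept a negative one. With equal column medians Herpud1 had -0.30 (0.0588).

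The Myc and Xbp1 slopes come from the same lymphomas, in which Xbp1 fell by 1.05 ± 0.16 per log2 unit of Myc (limma adjusted p = 2.73e-06), and they are not separate evidence. With Xbp1 as a covariate 0 members had a Myc slope past the threshold: Edem1 had -0.56 (adjusted p = 0.0596), Hspa5 -0.08 (0.663) and Sel1l 0.01 (0.985). With Myc as a covariate 4 kept an Xbp1 slope past it, among them Hspa5 at 0.45 (1.66e-05) and Edem1 at 0.58 (0.00199), and Herpud1 had 0.33 (0.0652). Without lymphomas 30 and 39, the 2 with the lowest centred Myc, 2 members passed in the Myc fit, Edem1 at -0.80 (0.000206) and Hspa5 at -0.41 (0.00377). Hsp90b1 had -0.26 (0.0737), Sel1l -0.15 (0.342) and Herpud1 -0.13 (0.539).

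Myc had an r of -0.665 with the T cell score. With the other-cell scores held, Edem1 kept a negative Myc slope past the threshold, -0.55 (limma adjusted p = 0.0320), and Trib3 then passed as well, at -0.25 (0.0485). Hspa5 had -0.07 (0.690), and Hsp90b1 and Sel1l changed sign to 0.06 (0.799 and 0.807). Within the set of 36, 4 members passed, without Herpud1 (-0.26, adjusted p = 0.185). Within the set of 7, 0 did (Hspa5 -0.84, 0.0848; Edem1 -1.68, 0.0653).

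Jchain, which marks antibody secretion, gave a like order, but from the same lymphomas, so its slopes are not separate evidence either. Jchain fell by 2.95 ± 0.42 per log2 unit of Myc (limma adjusted p = 9.60e-07). It rose by 1.69 ± 0.33 per log2 unit of Xbp1 (5.15e-05). It ran from 5.0 through 8.81 to 13.53 in the 36 lymphomas and from 5.41 through 10.46 to 13.71 in the 7. Positive slopes passed for 4 of the 5 chaperone and degradation genes, against 12.2% of all genes. Edem1 had 0.26 ± 0.04 (limma adjusted p = 5.57e-05), Hsp90b1 0.13 ± 0.02 (0.000145), Hspa5 0.13 ± 0.03 (0.000224) and Sel1l 0.09 ± 0.03 (0.0193), and Herpud1 had 0.05 ± 0.04 (0.276). In the Atf4 arm 0 of 4 passed, where 31.6% of all genes passed in either direction. The arm's slopes ran from -0.05 for Asns to 0.02 for Trib3. Without lymphomas 30 and 39, Sel1l had 0.03 (0.470) and the chaperones and Edem1 still passed. With array weights Sel1l had 0.05 (limma adjusted p = 0.138). With the other-cell scores held 0 members passed, and Edem1 had 0.14 (0.190). The antibody heavy chain genes did not all go with Jchain. On Jchain, Igha had a slope of 0.81 ± 0.11 (limma adjusted p = 4.66e-06) and Ighm -0.16 ± 0.08 (0.118). On Xbp1, Ighm had -0.50 ± 0.21 (0.0426) and Igha 0.92 ± 0.42 (0.0719). On Hspa5, Ighm had -0.97 ± 0.36 (0.0282) and Igha 1.39 ± 0.76 (0.141).

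**Figure D5:**
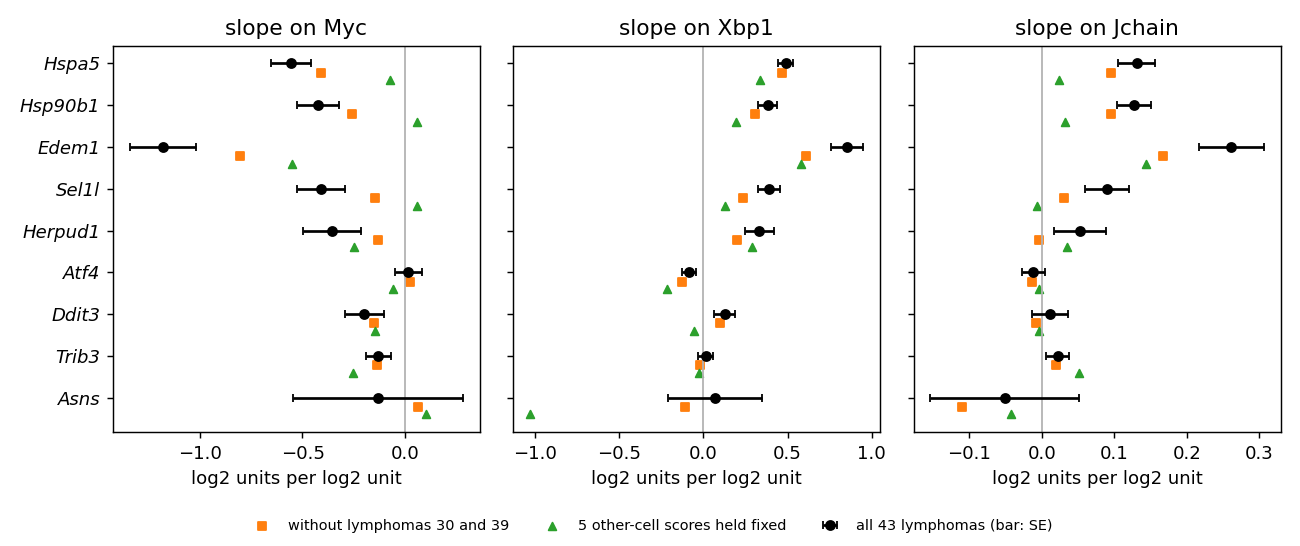
Slopes of the 9 genes (vertical axis) on Myc, Xbp1 and Jchain in log2 units per log2 unit (horizontal axes), as black points with SE over 43 lymphomas, orange squares without lymphomas 30 and 39 and green triangles with 5 other-cell scores held. The 5 chaperone and degradation genes, at the top, lie below 0 for Myc and above 0 for Xbp1 over all lymphomas, and with the scores held Hsp90b1 and Sel1l cross 0 for Myc.

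Set against Hspa5 itself, the rest of its arm was higher where it was. These slopes rest on the same pairs and lymphomas as the correlations above, so they are not separate evidence. Hsp90b1 had a slope of 0.83 ± 0.07 per log2 unit of Hspa5 (limma adjusted p = 1.96e-11), Edem1 1.46 ± 0.18 (1.17e-07), Sel1l 0.64 ± 0.12 (6.85e-05) and Herpud1 0.42 ± 0.17 (0.0401), where 16.8% of all genes had a positive slope past the threshold. The call for Herpud1 was not a firm one: its correlation with Hspa5 over the same 43 lymphomas had not passed (adjusted permutation p = 0.0894), and its slope lost the call with no filter on low values (limma adjusted p = 0.0505), with equal column medians (0.0669) and within the set of 36 (0.231). The Atf4 arm had 0 of 4, where 41.7% of all genes passed in either direction, with Ddit3 nearest at 0.24 ± 0.11 (0.0828). Without lymphomas 30 and 39 Herpud1 had 0.09 (0.748) and the other 3 passed. Without lymphomas 9, 13, 32 and 40 Ddit3 passed at 0.30 (0.00927). With the other-cell scores held Hsp90b1 alone passed, at 0.78 (0.00426).

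Set against Atf4 mRNA, 0 members passed, and 0% of all 8720 genes did by limma after adjustment. At an unadjusted p under 0.05 there were 455 genes, 5.22% of those tested. The slope of Asns was 1.80 ± 0.99 (adjusted p = 0.933), of Ddit3 0.23 ± 0.24 (0.939) and of Trib3 0.09 ± 0.16 (0.956), and Hspa5 had -0.43 ± 0.31 (0.939). Every alternative run that kept the sets apart also called 0 genes. Without the sets, whose column medians differ, 6865 genes and 5 members passed.

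A wider list of ER folding and degradation genes was read beside the arm, 42 listed and 39 tested. With Xbp1, which then leaves its own list, 29 of 38 rose and 0 fell, where 18% of all genes rose. Calr, a lectin chaperone, had 0.40 ± 0.03 (limma adjusted p = 6.57e-12), Pdia3, its disulfide isomerase partner, 0.49 ± 0.05 (9.84e-09), and Dnajc3, a BiP cochaperone, 0.53 ± 0.06 (1.59e-08). The list's median slope was 0.28, and that of all genes -0.03. With Myc 25 of 39 fell and 0 rose, where 16.9% of all genes fell. Those that fell included Derl1, a membrane protein of ER degradation (-0.46 ± 0.07, 1.86e-06), Creld2, a secreted ER stress protein (-1.19 ± 0.18, 2.58e-06), and Xbp1. With Jchain 23 of 39 rose, where 12.2% of all genes did, among them Hyou1, an ER chaperone (0.12 ± 0.02, 6.12e-06). With Hspa5 33 of 39 rose, where 16.8% did, among them Manf, an ER stress protein (1.08 ± 0.09, 1.96e-11). With Atf4 0 of 39 passed. These list counts did not hold the other-cell scores. With the scores held, the positive slopes past the threshold among all genes were 27 with Xbp1, 3 with Jchain and 10 with Hspa5. Each is below the list's own count, so those 3 counts depend on leaving the scores out.

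The wider Atf4 and amino acid list, 45 listed and 37 tested, went both ways. With Xbp1, Myc, Jchain and Hspa5 all genes did so too, and this alone does not set the list apart. With Xbp1 9 rose and 8 fell, where 18% of all genes rose and 29.6% fell. Those that rose included Jdp2, a bZIP factor (0.72 ± 0.14, limma adjusted p = 4.39e-05), Sesn2, a sestrin of the stress response (0.27 ± 0.06, 0.000109), and Slc3a2, the heavy chain of amino acid transporters (0.22 ± 0.05, 0.000259). Those that fell included the translation repressor Eif4ebp1 (-0.30 ± 0.05, 1.13e-05), the transporter Slc38a2 (-0.34 ± 0.06, 3.45e-05) and Shmt2, an enzyme of mitochondrial one-carbon metabolism (-0.25 ± 0.05, 0.000172).

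With Myc 6 of the 37 rose and 7 fell, where 26.4% of all genes rose and 16.9% fell. Those that rose included the tRNA synthetase Eprs (0.37 ± 0.06, limma adjusted p = 8.30e-06) and the glutamine transporters Slc1a5 (0.41 ± 0.09, 0.000286) and Slc38a2 (0.43 ± 0.10, 0.000889). Those that fell included Jdp2 (-1.27 ± 0.18, 7.11e-07), Atf5 (-0.49 ± 0.10, 0.000239) and Nupr1 (-0.59 ± 0.16, 0.00294). With Jchain 6 rose and 6 fell, where 12.2% of all genes rose and 19.4% fell. With Hspa5 9 rose and 7 fell, where 16.8% rose and 24.9% fell, Slc3a2 being first among those that rose (0.50 ± 0.07, 1.57e-06). With Atf4 0 did either.

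In the spleen the genes that passed were Sel1l, of the degradation genes, and Atf4, Ddit3 and Trib3, of the Atf4 arm. Of the 9, 4 were higher in the spleen past the threshold and 0 lower, where 7.6% of 8721 genes were higher. Sel1l was higher by 3.60 ± 0.52 (SE, limma adjusted p = 8.57e-07), which is 12.2-fold. Ddit3 was higher by 2.24 ± 0.39 (3.21e-05), 4.74-fold, Trib3 by 2.12 ± 0.26 (1.72e-08), 4.36-fold, and Atf4 by 0.87 ± 0.25 (0.0145), 1.83-fold. Edem1 had 2.48 ± 0.95 (0.0727), Hspa5 1.08 ± 0.51 (0.152), Hsp90b1 1.01 ± 0.48 (0.158), Asns 2.57 ± 1.62 (0.299) and Herpud1 0.48 ± 0.58 (0.631). The spleen lay above all 7 lymphomas of its set for 6 of the 9 and below all 7 for 0, against 19.6% and 31% of all genes, and the median difference of all genes was -0.16.

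With 1 spleen, the fit takes its error from the lymphomas and assumes that the spleen varies as they do. Without lymphomas 30 and 39, 7 members passed, now also Edem1 (2.92, limma adjusted p = 0.00166), Hspa5 (1.29, 0.0284) and Hsp90b1 (1.15, 0.0405). With the spread of the 7 lymphomas alone Atf4 no longer passed (0.121). The 4 probe sets of Sel1l differed in the spleen by 1.54 to 4.34, and those of Edem1 by 0.91 and 2.48. One of the 3 Atf4 probe sets, at a low level, had a difference of 0.11, and the mean of the 3 had 0.62 (0.0593).

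Some other-cell scores differed between the spleen and the lymphomas at the same time, and others lay within the range of the 43 lymphomas. The spleen's erythroid score was 6.75, where the lymphomas ran from -0.29 to 0.49, with all 8 erythroid markers measured above every lymphoma of its set. Its neutrophil score was 5.59 (lymphomas -2.55 to 2.75), and its plasma cell score 3.38 (-1.39 to 3.26), with 7 of 9 plasma cell markers above. Its stroma score of 3.16 (-0.87 to 4.76) and its macrophage score of 2.83 (-1.47 to 3.65) were each below that of lymphoma 13. Both were above all lymphomas of its own set, whose highest scores were 0.73 for stroma and 2.55 for macrophages. Of the stroma markers 8 of 9, and of the macrophage markers 4 of 10, were above every lymphoma of that set. Its T cell score of -1.10 (-1.48 to 2.41) and its B cell score of -1.22 (-2.68 to 0.96) also lay inside the range of the 43 lymphomas. The B cell score was below all lymphomas of its own set (-0.63 to 0.52). Xbp1 was higher by 2.78 ± 0.89 (limma adjusted p = 0.0300) and Prdm1, a factor of plasma cells, by 3.79 ± 1.01 (0.00803). The part of these cells in the members' differences was not tested.

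Beside the members, the 39 ER folding and degradation genes tested had a median spleen difference of 0.81 (-0.37 to 2.93), against -0.16 for all genes. Those higher in the spleen included Edem2 (1.96 ± 0.55) and Erlec1 (1.59 ± 0.42), both lectins of ER disposal, and P4hb, a disulfide isomerase (0.98 ± 0.30). Of the 37 genes of the Atf4 and amino acid list, 8 were higher and 3 lower, where 7.6% of all genes were higher and 5.79% lower. Ppp1r15a, which encodes the eIF2α phosphatase subunit GADD34, had 3.99 ± 0.38 (1.69e-11), Nupr1 3.22 ± 0.73 (0.00151) and Chac1, a glutathione-degrading enzyme, 2.58 ± 0.57 (0.00115). The serine synthesis enzymes Phgdh (-1.30 ± 0.33, 0.00471) and Psat1 (-1.12 ± 0.39, 0.0478) and the kinase gene Eif2ak4, which encodes Gcn2 (-1.16 ± 0.39, 0.0397), were lower.

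The genes most like each arm were ranked by Pearson r with the arm's mean centred level over the 43 lymphomas, as a description. The 10 nearest the chaperone and degradation arm were Pdcd1 (0.917), Creld2 (0.913), Manf (0.906), Slc35b1 (0.900), Tnfrsf9 (0.895), Tnfrsf4 (0.885), Lag3 (0.883), Syt11 (0.866), Erp44 (0.866) and Dnajc3 (0.859). Creld2, Manf, Erp44 and Dnajc3 belong to ER folding. Pdcd1, Tnfrsf9, Tnfrsf4 and Lag3 encode surface receptors of activated T cells. Without lymphomas 30 and 39 the 10 values ran from 0.699 for Dnajc3 to 0.839 for Pdcd1. Hspa5 alone was nearest to Calr (0.913), Hyou1 (0.882), Pdia6 (0.877), Manf (0.875) and the leukocyte integrin gene Itgb2 (0.869).

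The Atf4 arm had weaker neighbours. Its mean level had an r of 0.958 with Asns and of 0.338 to 0.400 with its other 3 genes. The nearest were the ion cotransporter Slc12a2 (0.656), the neutral amino acid transporter Slc1a4 (0.627), Lgalsl (0.613), Chac1 (0.577), Paip2b (0.543), Pgm1 (0.521), Tmem38b (0.510), D7Ertd128e (0.509), Reep6 (0.50) and Slc3a2 (0.492). Within the 37 lymphomas of the upper Asns component Chac1 had 0.665 and Slc1a4 0.575, whereas Slc12a2 had 0.403 and Lgalsl 0.311. Atf4 alone was nearest to Snx30 (0.557), Ppp2r1a (0.551), the tRNA synthetase Tars (0.535), Map2 (0.516) and Wdr43 (0.510). Trib3 was nearest to Armcx4 (0.769), Slc6a13 (0.739), Acy3 (0.705), C1qtnf6 (0.704) and Lhx2 (0.692).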

How the data were processed

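RNA of 43 lymphomas and 1 spleen had been hybridised to Affymetrix arrays. Each probe set has a deposited log2 value. RMA and affy are named in the submitters' processing notes, with versions not given in the sources used here. Of 22626 probe sets that are not controls, 20380 had 1 gene symbol in GEO's platform annotation, 691 several and 1555 none. The probe set with the highest mean stood for each of 12393 genes. Genes that exceeded their set's median on no array were dropped, which left 8721. Fits were made with limma 3.58.1 in R 4.3.3 (lmFit, eBayes with trend, Benjamini-Hochberg, threshold 0.05, two-sided, set as covariate) and were tested on simulated data. A predictor left its own fit. Correlations used 100000 permutations within the sets, or all 5040 orders for 7 lymphomas, and mclust 6.1.1 for components (BIC gain over 10, Ashman D over 3). A score is the mean centred level of a marker list, named for its cell type. Genes named were the members, single genes of the model and of plasma cells, up to 3 genes with the highest and 3 with the lowest statistic of each wider list, and the 10 or 5 nearest by r. The members and lists were chosen with earlier results of these data known. Arrays have no read depth, so their number limits the precision. The columns do not tell whether RMA was run separately on the 2 sets of title numbers.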

Additional observations from a re-analysis of the deposited data

How the results depend on the processing

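Of 331 alternative values for members past the threshold, 275 kept sign and call, 52 kept the sign and lost the call, and 4 changed sign. Of the values not past it, 24 came to pass. The 5 changes of sign where a call was involved were in the Myc fit Hsp90b1 (0.057) and Sel1l (0.056) with other-cell scores and Sel1l (0.0072) with Xbp1 as covariate, in the Jchain fit Sel1l (-0.0063) with other-cell scores, and in the Atf4 fit Hsp90b1 (0.41) without the set. The causes were not tested.

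Counts that moved by over 1.5 times were as follows. In the spleen, 1168 genes became 767 with at least 10 arrays above the median and 2449 with array weights, and 4 members became 7 with array weights, without the set, or without lymphomas 30 and 39. With equal column medians the spleen split was 594 higher and 785 lower, against 663 and 505, and the median of all genes moved from -0.16 to -0.30. Without the set the split was 1207 higher and 41 lower (1248 genes), with a median of 0.42. With Myc, 3775 genes became 822 with other-cell scores, 544 with Xbp1 as covariate and 49 in the set of 7. The 5 members, all lower, became 3 without the set (Hspa5 and Edem1 lower, Atf4 higher at 0.27), 2 with other-cell scores (Edem1 and Trib3), 2 without lymphomas 30 and 39 or without the 2 farthest (the same lymphomas), and 0 with Xbp1 or in the set of 7. With Xbp1, 4149 genes became 2376 without the set, 47 with other-cell scores, 692 in the set of 7 and 1354 with Myc as covariate, and 5 members became 1 with other-cell scores. With Jchain, 2756 genes became 1203 without the set, 3 with other-cell scores, 0 in the set of 7 and 1360 without lymphomas 30 and 39, and 4 members became 0 with other-cell scores and in the set of 7. With Hspa5, 3636 genes became 11 with other-cell scores, 525 in the set of 7 and 2370 without lymphomas 30 and 39, the 2 farthest, and 4 members became 1 with other-cell scores. With Atf4, 0 genes and 0 members became 6865 and 5 without the set. The 8 pairs became 29 without the set, 4 with other-cell scores, without the 2 farthest or without lymphomas 30 and 39, and 0 in the set of 7. Fits in that set rest on 7 lymphomas. Settings without lymphomas 30 and 39, and with Xbp1 or Myc as covariate, were chosen after seeing the data. Leaving out the 2 farthest lymphomas was planned for the correlations, and for the fits it was chosen after seeing the data. No paired analysis was possible because the labels give no replicate numbers shared between the lymphomas and the spleen.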
